A study of Mus musculus with 6 samples.

Results

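The immunoglobulin heavy chain variable (Ighv) segments are the germline pieces from which the antigen-binding end of the antibody heavy chain is built. Members were all rows of the deposited expression table whose gene name starts with Ighv and whose annotated type contains IG_V, with no filter on expression, which gave 106 of 33679 genes. Of these, 95 were annotated as variable genes, 9 as variable pseudogenes and 2 with a mixed variable and protein-coding type. They fell into 15 families by the number after Ighv in the name.

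RNA was sequenced from mouse kidneys that had all undergone unilateral ureteral obstruction, an operation that ties off one ureter and leaves the kidney scarred. The values used here came from 1 Cd248 knockout library (replicate 1) and 3 wild type libraries, and the labels name no age, sex, background strain or time after surgery. Cd248 encodes a surface glycoprotein of fibroblasts and pericytes, and the knockout library listed it at 0 FPKM against 9.03, 9.57 and 8.78 FPKM in wild type replicates 1, 2 and 3. FPKM is fragments scaled to the length of the transcript and to the mapped fragments of the library, and the read depth behind it is unknown. The labels' protocols mention pooled RNA and nothing places the replicates in separate animals, so p-values speak of the spread among these libraries only, and part of it may be technical.

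During B cell development, one variable segment is joined to a diversity and a joining segment of the same locus, and each B cell then transcribes mainly that one rearranged gene. Plasma cells, the antibody-secreting descendants of B cells, hold very large amounts of this transcript. The mix of segments in a tissue is called its segment usage, and it is commonly read as a picture of which B cell and plasma cell clones contributed RNA. Families group segments of similar sequence, and family 1, the J558 family of mice, is the largest of the mouse locus.

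All 106 segments were found by gene identifier in the GENCODE M21 annotation of mm10, on the minus strand of chromosome 12 between position 113578504 (Ighv5-2, nearest to the joining segments) and position 116000461 (Ighv1-85, farthest). The 7 germline sequences below are shown because the results turn on them. They are the 4 highest segments of the knockout library, the highest segment by wild type mean (Ighv1-26), and the pair with the highest wild type means among segments that were not above every wild type library in the knockout (Ighv7-1 and Ighv3-1). Each runs 5′ to 3′ on the coding strand from the codon of the first conserved cysteine to that of the second, the pair that forms the disulphide bridge of the variable domain, and both codons are in capitals. These are reference letters, not letters read from the libraries.
Ighv1-55: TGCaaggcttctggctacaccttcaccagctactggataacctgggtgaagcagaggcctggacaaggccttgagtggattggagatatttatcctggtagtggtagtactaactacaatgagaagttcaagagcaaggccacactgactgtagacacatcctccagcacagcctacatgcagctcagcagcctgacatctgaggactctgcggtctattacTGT
Ighv1-82: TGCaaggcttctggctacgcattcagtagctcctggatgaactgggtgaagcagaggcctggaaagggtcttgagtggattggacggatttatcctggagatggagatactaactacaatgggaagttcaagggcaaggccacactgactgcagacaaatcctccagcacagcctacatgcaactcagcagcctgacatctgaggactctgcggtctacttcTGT
Ighv1-52: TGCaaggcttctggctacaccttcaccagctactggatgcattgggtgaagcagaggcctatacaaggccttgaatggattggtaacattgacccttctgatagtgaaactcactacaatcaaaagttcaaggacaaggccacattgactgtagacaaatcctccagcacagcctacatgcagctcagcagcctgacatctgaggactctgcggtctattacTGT
Ighv9-3: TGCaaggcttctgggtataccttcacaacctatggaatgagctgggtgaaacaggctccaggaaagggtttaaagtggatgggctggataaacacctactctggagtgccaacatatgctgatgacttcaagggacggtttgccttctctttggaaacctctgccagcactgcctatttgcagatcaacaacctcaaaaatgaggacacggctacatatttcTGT
Ighv1-26: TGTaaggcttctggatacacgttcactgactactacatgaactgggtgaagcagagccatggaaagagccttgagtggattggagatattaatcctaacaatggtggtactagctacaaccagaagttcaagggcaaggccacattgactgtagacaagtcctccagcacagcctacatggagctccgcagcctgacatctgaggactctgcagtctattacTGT
Ighv7-1: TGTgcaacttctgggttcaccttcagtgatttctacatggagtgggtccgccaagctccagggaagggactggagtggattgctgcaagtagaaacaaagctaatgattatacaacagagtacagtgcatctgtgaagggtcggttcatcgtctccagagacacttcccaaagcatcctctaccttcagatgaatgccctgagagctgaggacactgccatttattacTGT
Ighv3-1: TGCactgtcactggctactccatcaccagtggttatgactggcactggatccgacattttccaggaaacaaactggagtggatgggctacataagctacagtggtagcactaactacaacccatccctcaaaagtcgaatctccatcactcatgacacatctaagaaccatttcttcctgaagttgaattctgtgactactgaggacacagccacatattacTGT

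The genes of the first 4 lie at chr12:115208095-115208591 (Ighv1-55), chr12:115952538-115953005 (Ighv1-82), chr12:115145487-115145919 (Ighv1-52) and chr12:114140692-114141122 (Ighv9-3). Those of the other three lie at chr12:114788372-114788805 (Ighv1-26), chr12:113896408-113896946 (Ighv7-1) and chr12:113964388-113964818 (Ighv3-1). Ighv1-55 shared 89.3% of this stretch with Ighv1-82, 88.0% with Ighv1-52 and 86.7% with Ighv1-26, its family members, but 67.1% with Ighv9-3. Over the 95 segments that had such a stretch (222 to 231 bases long), the median identity was 85.3% within a family and 60.4% between families. For 51 of them the nearest relative was at least 95% identical, and for 12 it was at least 98% identical. Ighv1-71 and Ighv1-62-2 were the same in every base of it. Reads from such close copies can be split or misassigned between them, so the value of a single segment is less certain than that of its family. The 12 segments with a relative at 98% or more held 13.7% of summed Ighv FPKM in the knockout library against 8.99%, 8.15% and 9.61% in wild type replicates 1, 2 and 3.

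Ighv transcripts were far more abundant in the knockout library. Summed over the 106 segments, FPKM was 3309.09 in the knockout library against 106.61, 98.73 and 72.31 in wild type replicates 1, 2 and 3. The wild type mean was 92.6 ± 17.97 FPKM (SD, n = 3), and the knockout library was 35.8-fold above it. This sum was 1.09% of all FPKM in the knockout library against 0.0399%, 0.0353% and 0.0253% in the wild type libraries. The exact permutation test over libraries, two-sided, gave p = 0.25, which is the smallest p that 1 library against 3 can give, and every such test here has that limit. In bulk tissue, a difference in the number of antibody-making cells and a difference in RNA per cell cannot be told apart.

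The higher level spread over nearly all of the locus and not over a few segments. In the knockout library 100 segments were listed above 0, 80 reached 1 FPKM and 51 reached 10 FPKM. In wild type replicates 1, 2 and 3, 73, 67 and 65 segments were above 0, 35, 32 and 23 reached 1 FPKM, and 1, 0 and 1 reached 10 FPKM. The median segment stood at 8.585 FPKM in the knockout library against 0.425, 0.335 and 0.245 FPKM in the wild type libraries. The knockout value was above every wild type library for 96 of the 106 segments, a place that 25.5% of all genes in the table had, and below every wild type library for 0. For the 51 segments above 0 in all 4 libraries, the ratio of the knockout value to the wild type mean had a median of 22.8 and ran from 0.854 (Ighv3-1) to 265 (Ighv1-52), with 35 segments at 10-fold or more.

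Each segment was tested with limma on log2(FPKM + 1), where changes of low genes come out too small. That scale also narrows the spread among low wild type values, so it is not cautious in every respect. Fewer segments were called with a smaller pseudocount, as given in the closing section. Benjamini-Hochberg adjustment ran over the 16871 genes whose 4-library mean reached 0.5 FPKM. Of the 106 segments 74 met that minimum, 36 of them were called higher in the knockout library at an adjusted p under 0.05, 0 were called lower (also 0 at an unadjusted p under 0.05), and 38 did not pass. Over all genes tested, 0.64% were called higher. Among the 74, 53 also had a wild type mean of at least 0.5 FPKM, and 24 of these were called higher. The other 21 entered the test only through their knockout value, which had to be high for them to be tested, and 12 of them were called. Only the wild type libraries give a spread here, and a single knockout library has to be taken to vary as they do. Without wild type replicate 1, 2 or 3 the number of segments called was 15, 28 or 17, and 24, 12 or 21 of the 36 calls were lost.

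In the knockout library Ighv1-55 was the highest segment. It stood at 235.53 FPKM there against 2.29, 1.06 and 1.21 FPKM in wild type replicates 1, 2 and 3, a 155-fold ratio to the wild type mean. The log2 difference was 6.58 with a standard error of 0.30 (limma, Benjamini-Hochberg adjusted p = 0.0067), and without wild type replicate 3 the adjusted p was 0.084. The knockout value lay far outside the wild type range, and the same held for each of the 15 highest segments of that library. Those 15 were picked by their knockout values, which favours such a place, so this is description only. Ighv1-82 was next at 227.71 FPKM against 3.82, 3.60 and 1.63 FPKM (log2 difference 5.88, SE 0.39, limma adjusted p = 0.0167), a call lost without wild type replicate 1 (adjusted p = 0.124) or replicate 2 (adjusted p = 0.068). Ighv1-52 stood at 202.86 FPKM against 1.5, 0.52 and 0.28 FPKM, with the largest called log2 difference, 6.91 (SE 0.40, limma adjusted p = 0.0135), which was lost without wild type replicate 2 (adjusted p = 0.0627) or 3 (adjusted p = 0.0889). Its wild type values were low and spread over several-fold, so the ratio of 265 rests on a small denominator, and without wild type replicate 1 it was 507. Ighv9-3, of a family apart from family 1 in sequence, stood at 173.90 FPKM against 2.03, 1.85 and 1.29 FPKM (log2 difference 6.02, SE 0.19, limma adjusted p = 0.0030).

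Several high segments had nearly equal values in the wild type libraries. Ighv1-54 was 97.25 FPKM in the knockout library against 0.56, 0.64 and 0.52 FPKM in the wild type libraries (log2 difference 5.97, SE 0.10, limma adjusted p = 0.0011). Ighv2-2 was 78.53 FPKM against 0.66, 0.69 and 0.66 FPKM (log2 difference 5.57, SE 0.09, limma adjusted p = 0.0011), and Ighv1-9 was 99.72 FPKM against 1.39, 1.30 and 1.03 FPKM (log2 difference 5.49, SE 0.13, limma adjusted p = 0.0024). Every wild type library listed Ighv9-1 and Ighv1-20 at 0, and the knockout library had them at 36.23 and 22.62 FPKM (limma adjusted p = 0.0021 and 0.00255, and these knockout values alone brought them into the test), so no ratio is given. These 5 and Ighv9-3 were the only calls of the 36 that passed without each wild type library in turn and under each other setting tried that tested them. For Ighv9-1 and Ighv1-20, at 0 in every wild type library, leaving a library out could not change the difference or add spread. Their passing these omissions therefore adds no support. Ighv1-19 (111.72 FPKM against 2.13, 0.76 and 0.96), Ighv14-3 (124.76 against 1.69, 2.13 and 0.25), Ighv2-6 (90.74 against 1.31, 0.10 and 0.47) and Ighv1-53 (79.09 against 0.96, 1.78 and 0.41) were called, with limma adjusted p from 0.0153 to 0.0467, and each call was lost without at least one wild type library. The adjusted p of Ighv1-19 was 0.0503 without replicate 2 and 0.148 without replicate 3, and that of Ighv14-3 was 0.277 without replicate 1 and 0.105 without replicate 2. Ighv2-6 was at 0.205 without replicate 3, and Ighv1-53 at 0.214 without replicate 1 and 0.0832 without replicate 3.

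Other high segments did not pass, and their wild type values were far apart. Ighv5-6 stood at 115.01 FPKM in the knockout library against 10.96, 0.32 and 2.44 FPKM in wild type replicates 1, 2 and 3 (log2 difference 4.94, limma adjusted p = 0.336). Ighv9-2 stood at 92.83 FPKM against 4.13, 0.26 and 0.46 FPKM (log2 difference 5.47, limma adjusted p = 0.186). In both, wild type replicate 1 was the high one, yet it was well under the knockout library. Ighv1-80 (170.61 FPKM against 1.48, 4.32 and 1) and Ighv1-78 (78.27 FPKM against 1.52, 2.63 and 0.42) missed the threshold narrowly (limma adjusted p = 0.0514 and 0.0613). Without wild type replicate 1 Ighv9-2 passed (adjusted p = 0.0246), and without replicate 2 Ighv1-80 passed (adjusted p = 0.0217). Spread of this kind was common. Over the 51 segments listed above 0 in all 3 wild type libraries, the median coefficient of variation was 61.2%, and in 20 of them the highest wild type value was at least 5 times the lowest.

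**Figure D1:**
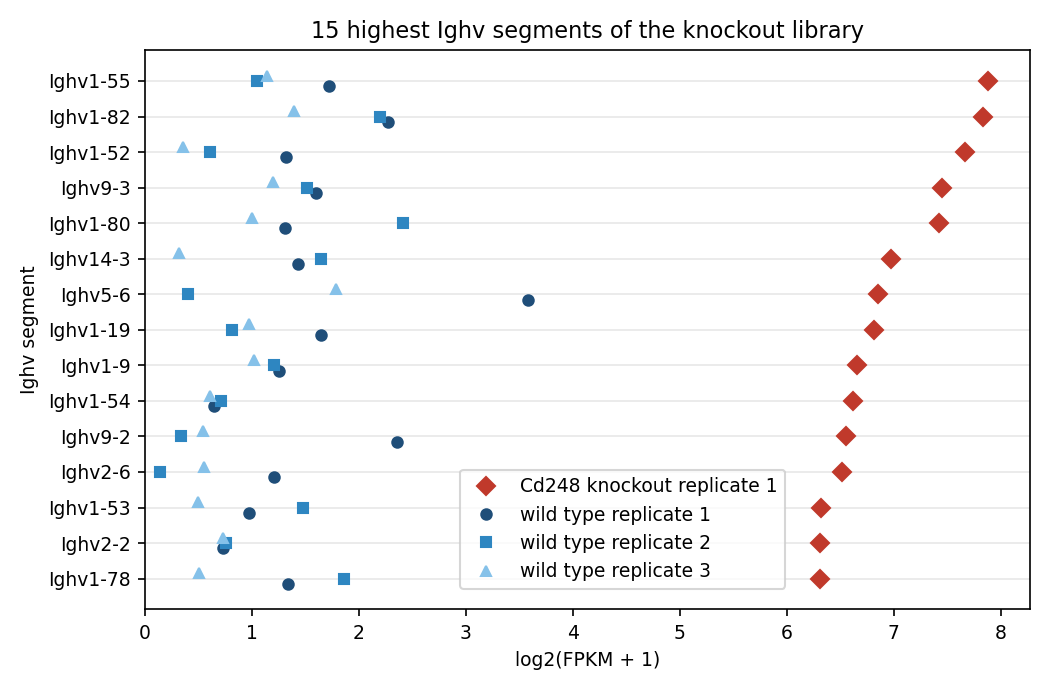
Level of the 15 segments that were highest in the knockout library, as log2(FPKM + 1) on the horizontal axis, with one point per library. The knockout points sit to the right of all 3 wild type points in every row, and the wild type points of Ighv5-6 and Ighv9-2 are spread most widely, with replicate 1 highest. Picking the segments by their knockout level favours that place of the knockout points.

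In all, 10 segments were not above every wild type library. Ighv3-1 stood at 1.58 FPKM in the knockout library against 1.71, 2.45 and 1.39 FPKM in the wild type libraries (log2 difference -0.13, SE 0.24, limma adjusted p = 0.873), although its nearest relative in sequence, Ighv3-6 at 93.8% identity, was called higher. Ighv7-1 stood at 1.08 FPKM against 1.05, 4.83 and 0 FPKM (log2 difference -0.14, limma adjusted p = 0.973), and the sign of both differences turned without wild type replicate 2. The knockout value of each lay inside the wild type range, so a higher level was not seen for either. The standard error of the Ighv7-1 difference was 1.01, too wide to show that its level was unchanged. Ighv1-47 stood at 0.06 FPKM against 1.26, 0 and 0.36 FPKM and was not tested. Ighv8-4 and Ighv8-6 were listed at 0 in the knockout library and under 0.5 FPKM in all 3 wild type libraries. The other 5 (Ighv1-43, Ighv1-41, Ighv15-1, Ighv15-2 and Ighv5-15, named here only to complete the count) included 2 listed at 0 in all 4 libraries, Ighv15-1 and Ighv5-15.

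Pseudogenes, variable segments with defects that keep them from coding a chain, contributed little. Their summed level was 5.16 FPKM in the knockout library against 0, 0 and 0.14 FPKM in the wild type libraries, or 0.156% of summed Ighv FPKM in the knockout library against 0%, 0% and 0.194% in the wild type libraries. Ighv1-62 (1.76 FPKM), Ighv1-79 (1.36 FPKM) and Ighv1-21 (0.90 FPKM) were the highest in the knockout library, and all 3 were listed at 0 in every wild type library. None of the 9 reached the level needed for testing.

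Usage was then compared as each segment's share of its library's summed Ighv FPKM, which sets the total level aside. Over all 106 segments, the evenness of usage in the knockout library lay inside the wild type range. The 10 highest segments of each library held 47.1% of its Ighv FPKM in the knockout library against 45.2%, 46.0% and 52.4% in wild type replicates 1, 2 and 3 (wild type mean 47.8% ± 3.94, SD, n = 3, exact permutation p = 1). The effective number of segments, the exponential of the Shannon entropy of the shares, was 42.4 in the knockout library against 44.2, 43.0 and 34.7 in the wild type libraries (40.7 ± 5.17, SD, n = 3, exact permutation p = 1). It took 12 segments to make up 50% of the total in the knockout library and in wild type replicates 1 and 2, against 9 in replicate 3. Wild type replicate 3 was the least even. Its highest segment, Ighv1-26, held 17.8% of its Ighv FPKM, and the pair of highest segments held 27.5% there, 17.6% and 14.6% in replicates 1 and 2 and 13.999% in the knockout library. In the other libraries the highest segment held 7.12% in the knockout library (Ighv1-55), 10.3% in wild type replicate 1 (Ighv5-6) and 7.35% in replicate 2 (Ighv1-26). Without wild type replicate 3, the difference of the knockout library from the wild type mean changed sign, from 1.71 to -1.26 for the effective number and from -0.725 to 1.54 percentage points for the 10 highest. With segments under 0.5 FPKM in a library set to 0, these differences were 8.90 and -4.12, so both measures depend on the low segments. That cut lay above the median segment of every wild type library and under that of the knockout library. It does not treat the libraries alike, so no difference in evenness is read from it. Evenness across segments does not count clones, since many clones can share a segment.

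**Figure D2:**
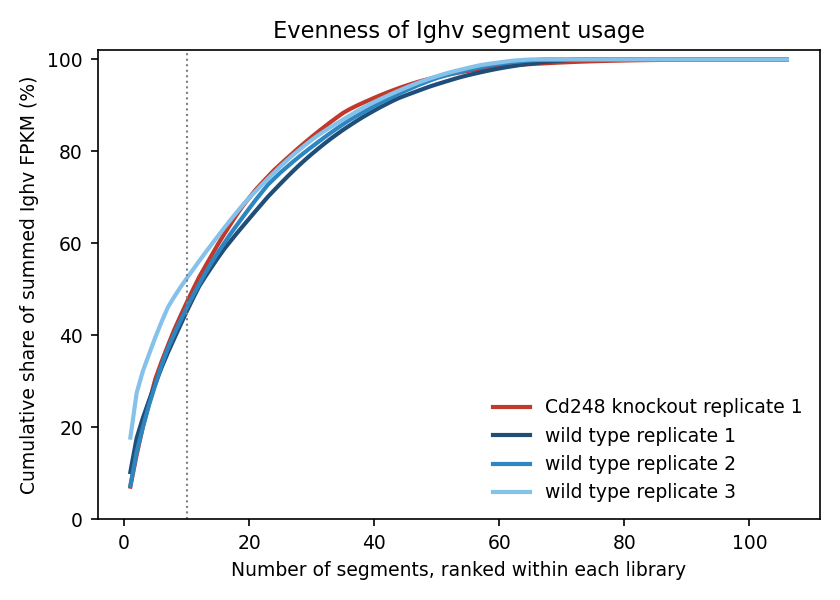
Cumulative share of summed Ighv FPKM (vertical axis, percent) against the number of segments taken from the highest down within each library, with a dotted line at 10 segments. The knockout curve runs with those of wild type replicates 1 and 2, and wild type replicate 3 rises faster over the first segments.

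The segments in front differed from library to library. Of the 10 highest segments of the knockout library, 2 were among the 10 highest of each wild type library, while pairs of wild type libraries had 3, 5 and 4 in common. Ighv1-82 was in the top 10 of all 4 libraries, and Ighv1-26 and Ighv3-6 were in that of the 3 wild type libraries. The overlap of usage, the sum over segments of the smaller of the 2 shares, was 51.2%, 51.3% and 43.3% between the knockout library and wild type replicates 1, 2 and 3. Between wild type libraries it was 53.4%, 51.7% and 54.6%. The first pair of knockout values lay just under this range and the third lay further under it. Wild type libraries listed 33, 39 and 41 segments at 0, against 6 in the knockout library. Pairs of wild type libraries may therefore carry more noise, so neither this range nor that of the rank correlations below is a like-for-like baseline. In rank order the knockout library lay within or above the range among wild type libraries. Spearman's rho over the 106 segments was 0.651, 0.654 and 0.584 between the knockout library and the wild type libraries and 0.624, 0.576 and 0.621 among wild type libraries, coefficients across segments that share a locus, a reference and close sequence copies and are given as description only.

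The knockout share was above every wild type share for 35 segments, below every one for 22 and within or tied for 49, counts read here as a description only. Ighv1-55 took 7.12% of Ighv FPKM there against a wild type mean of 1.63% ± 0.538 (SD, n = 3), Ighv1-52 took 6.13% against 0.774% ± 0.553, and Ighv9-3 took 5.26% against 1.85% ± 0.0625. In the other direction, Ighv1-26 stood at 69.88 FPKM in the knockout library against 3.13, 7.26 and 12.85 FPKM in the wild type libraries (limma adjusted p = 0.287), so its share was 2.11% against 9.35% ± 7.62. Its level was higher in the knockout library than in any wild type library while its share was lower. Ighv3-6 (70.59 FPKM against 4.69, 4.17 and 2.68, log2 difference 3.91, SE 0.27, limma adjusted p = 0.0190) had a share of 2.13% against 4.11% ± 0.36, and Ighv5-16 (21.00 FPKM against 2.86, 2.89 and 3.46, log2 difference 2.44, SE 0.13, limma adjusted p = 0.0099) had a share of 0.635% against 3.46% ± 1.15. Both calls were lost without wild type replicate 1 (adjusted p = 0.114 and 0.0866) and without replicate 2 (adjusted p = 0.0859 and 0.0549). Ighv8-12 stood at 18.08 FPKM against 7.84, 1.01 and 2.65 FPKM and did not pass (limma adjusted p = 0.471). Ighv3-1, whose level lay inside the wild type range, had a share of 0.0477% against 2.003% ± 0.444. Shares of one library sum to 100% and are not independent of each other.

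**Figure D3:**
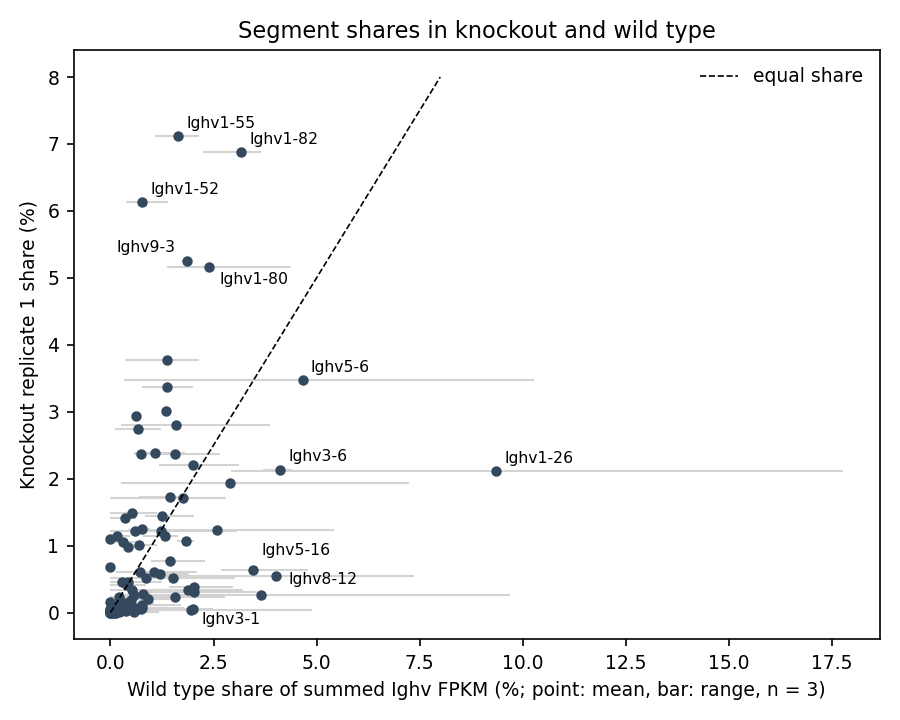
Share of summed Ighv FPKM of each of the 106 segments in the knockout library (vertical axis, percent) against the wild type mean (horizontal axis, percent), with grey bars for the range of the 3 wild type libraries and a dashed line where both shares are equal. Ighv1-55, Ighv1-82 and Ighv1-52 lie above the line clear of their wild type range, and Ighv1-26 lies below it with the widest range.

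By family, the knockout shares of families 1, 2, 9 and 14 were above all 3 wild type libraries, and those of families 3, 6, 8 and 10 were below them. Family 1, with 55 of the 106 segments, summed to 2038.26 FPKM in the knockout library against 53.60, 57.16 and 36.61 FPKM in the wild type libraries. Its share was 61.6% in the knockout library against 50.3%, 57.9% and 50.6% in the wild type libraries (52.9% ± 4.30, SD, n = 3, exact permutation p = 0.25). The knockout share was above all 3, though wild type replicate 2 came close to it. Of 41 family 1 segments tested, 16 were called higher, and of the 30 that also had a wild type mean of at least 0.5 FPKM, 12.

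Families 2 and 9 had the largest ratios of the summed levels. Family 2, with 8 segments, summed to 284.91 FPKM against 4.36, 3.60 and 3.04 FPKM, a 77.7-fold ratio, and its share was 8.61% against 4.09%, 3.65% and 4.20%. The wild type shares lay close together and the knockout share lay well above them, with 4 of 6 tested segments called higher, all 4 with a wild type mean of at least 0.5 FPKM. Family 9, with 4 segments, summed to 305.65 FPKM against 6.16, 2.23 and 1.75 FPKM, a 90.4-fold ratio (154-fold without wild type replicate 1), and its share was 9.24% against 5.78%, 2.26% and 2.42%. Ighv9-3 and Ighv9-2 made up most of the family 9 sum, and 3 of its 4 tested segments were called higher, of which Ighv9-1 and Ighv9-4 entered the test only through the knockout value. Family 14 had 4 segments and summed to 182.35 FPKM against 4.09, 4.81 and 3.82 FPKM (43.0-fold), with 3 of 4 tested segments called higher, and its share of 5.51% lay just above 3.84%, 4.87% and 5.28%.

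Families 3, 6, 8 and 10 were higher in level but lower in share. Family 8, with 7 segments, summed to 62.83 FPKM against 8.84, 7.37 and 4.72 FPKM (9.01-fold), and its share was 1.899% against 8.29%, 7.46% and 6.53%. Of its 3 tested segments 0 were called by limma, and its highest, Ighv8-8, stood at 41.05 FPKM against 0.45, 5.36 and 1.37 FPKM (limma adjusted p = 0.290). Family 3, with 4 segments, summed to 75.35 FPKM against 6.56, 6.62 and 4.07 FPKM (13.1-fold), and its share was 2.28% against 6.15%, 6.71% and 5.63%. Both families had tight wild type shares and a knockout share well under all of them. Family 6 took 1.35% of Ighv FPKM against 4.15%, 2.16% and 2.05%, with Ighv6-6 at 33.29 FPKM against 0.82, 0.20 and 0.81 (limma adjusted p = 0.0165, and 0.125 or 0.132 without wild type replicate 1 or 3). Family 10 took 1.03% against 1.08%, 3.46% and 10.7%. Ighv10-1 stood at 25.71 FPKM against 1.04, 2.26 and 0.77 FPKM (limma adjusted p = 0.0584, and 0.0254 without wild type replicate 2). The highest share of the family, in wild type replicate 3, came from Ighv10-3, a segment singled out after its values were seen, at 8.49 FPKM in the knockout library against 0.11, 1.16 and 7 FPKM in the wild type libraries. Without that replicate the family 10 difference shrank from -4.06 to -1.24 percentage points.

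The shares of families 4, 5 and 7 lay inside the wild type range. Family 5 held 6.995% of Ighv FPKM in the knockout library against 14.6%, 5.67% and 10.9%, and 5 of its 6 tested segments were called higher, or 2 of the 3 with a wild type mean of at least 0.5 FPKM. Family 7 held 1.17% against 0.985%, 4.89% and 0.484%, with Ighv7-3 at 37.74 FPKM against 0, 0 and 0.35 FPKM (log2 difference 5.13, limma adjusted p = 0.0067) beside Ighv7-1. Ighv7-3 entered the test only through its knockout value, and its call was lost without wild type replicate 1 (adjusted p = 0.0747). The highest segment of family 4, Ighv4-1, stood at 8.68 FPKM against 0.37, 0.26 and 0.81 FPKM (limma adjusted p = 0.0360, and 0.255, 0.108 or 0.0698 without wild type replicate 1, 2 or 3), and it too was tested only through its knockout value. Families 11, 12, 13 and 15 were scarcely present, with Ighv11-2 at 0.67 FPKM, Ighv13-2 at 0.64 FPKM and Ighv12-3 at 0.47 FPKM in the knockout library and Ighv15-1 listed at 0. Counted over families, the effective number was 4.12 in the knockout library against 5.47, 4.99 and 5.48 in the wild type libraries (exact permutation p = 0.25), below all 3. Overlap of family shares was 78.8%, 82.4% and 76.8% between the knockout and wild type libraries and 84.0%, 87.6% and 85.5% among wild type libraries.

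**Figure D4:**
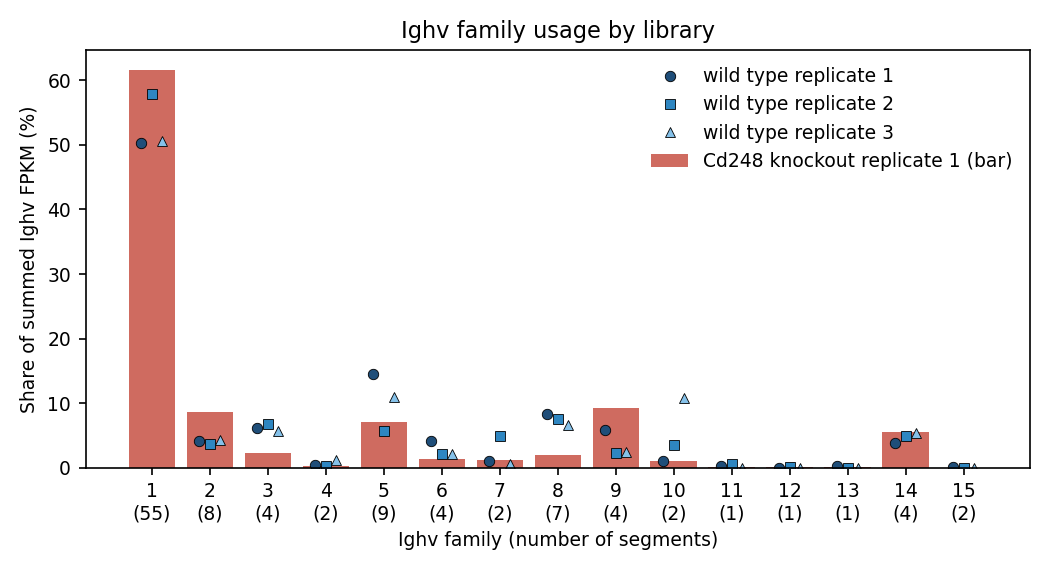
Share of summed Ighv FPKM by family (vertical axis, percent), with the number of segments in parentheses, as bars for the knockout library and points for wild type replicates 1, 2 and 3. The bars of families 1, 2, 9 and 14 reach above all wild type points, and those of families 3, 6, 8 and 10 end below them.

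Position along the locus was compared because segments near the joining segments and segments far from them differ in how they are brought into rearrangement. Distance was counted from Ighj1 (positions 113429781 to 113429833) and ran from 149 to 2570 kb. The 18 segments up to 500 kb and the 22 from 500 to 1000 kb included 0 of family 1, and family 1 filled most of the locus beyond them. The segments up to 500 kb held 15.6% of Ighv FPKM in the knockout library against 19.7%, 14.2% and 15.1% in the wild type libraries, and those from 500 to 1000 kb held 18.8% against 19.9%, 16.8% and 15.9%. Both lay inside the wild type range. The stretch from 1500 to 2000 kb, which holds Ighv1-55 and Ighv1-52, was at 24.0% against 13.5%, 20.7% and 13.5%, above all 3. The stretch from 1000 to 1500 kb held 18.7% against 15.1%, 20.8% and 40.6%. In wild type replicate 3, Ighv1-26 held 17.8% of Ighv FPKM and Ighv10-3, in the same stretch, held 9.68%. Beyond 2000 kb the shares were 22.9% against 31.8%, 27.5% and 14.9%. The distance at which 50% of Ighv FPKM was reached was 1342 kb in the knockout library against 1314, 1356 and 1262 kb in the wild type libraries (exact permutation p = 0.75), so the centre of usage along the locus lay inside the wild type range.

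**Figure D5:**
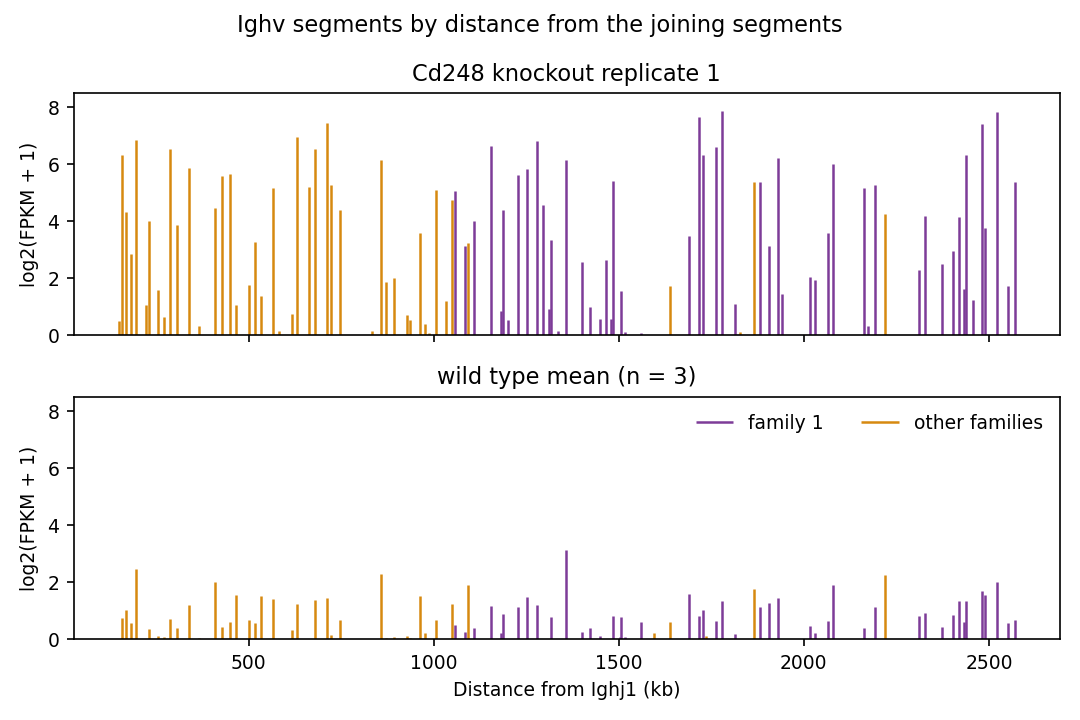
Level of each segment as log2(FPKM + 1) against its distance from Ighj1 in kb, for the knockout library (top) and the wild type mean (bottom, n = 3), with family 1 in purple and the other families in orange. Tall bars stand along most of the locus in the knockout library, out to 2570 kb, though that of Ighv5-2 at 149 kb (0.42 FPKM) is short. The tallest wild type bar is that of Ighv1-26.

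The germline segment ends just after the second conserved cysteine, where the junction with the diversity segment begins. In 57 of the 95 segments with the sequence stretch, the second cysteine codon and the 6 bases after it read TGTGCAAGA, the codons of cysteine, alanine and arginine that open many heavy chain junctions. These 57 segments held 76.4% of Ighv FPKM in the knockout library against 74.5%, 73.5% and 68.04% in the wild type libraries. The 3 segments ending in TGTGCTCGA held 1.79% in the knockout library against 7.86%, 6.45% and 5.74% in the wild type libraries, an ending named after its values were seen and carried by Ighv8-12, Ighv8-6 and Ighv8-8 of family 8. These counts describe the reference ends, which are often trimmed when segments are joined.

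Other pieces of the immunoglobulin loci were higher alongside. Heavy chain joining and constant pieces share a rearranged transcript with the variable segment. Their levels are therefore not independent of the Ighv sum. The 4 heavy chain joining segments summed to 1407 FPKM in the knockout library against 42.8, 37.3 and 23.4 FPKM in the wild type libraries, and Ighj2, Ighj3 and Ighj4 were called higher (median log2 difference over the 4, 5.25) while Ighj1 was not (221 FPKM against 14.25, 15.5 and 3.86, limma adjusted p = 0.235). The 8 heavy chain constant genes summed to 2028.84 FPKM against 66.19, 59.32 and 50.16 FPKM, a 34.6-fold ratio near that of the Ighv sum, and 6 of the 7 tested were called higher (median log2 difference 3.94). Among those called, Ighg1 and Ighg3 had wild type means of 0.45 and 0.0367 FPKM and entered the test only through their knockout values. The median is the difference of Ighg1. Igha, which encodes the constant region of IgA, stood at 1042 FPKM against 35.1, 25.1 and 13.7 FPKM (limma adjusted p = 0.0457), and Ighg2c, an IgG constant gene, at 765 FPKM against 6.90, 7.24 and 16.7 FPKM (limma adjusted p = 0.0313). Ighm, the IgM constant gene used before class switching, was 95.71 FPKM against 19.77, 21.18 and 15.31 FPKM (log2 difference 2.30, limma adjusted p = 0.0332), and Ighd, the IgD gene of naive B cells, was 1.35 FPKM against 1.55, 1.74 and 0.77 FPKM (limma adjusted p = 0.985). The 95 kappa light chain variable segments, on another chromosome, summed to 4480.4 FPKM against 144.47, 118.65 and 77.29 FPKM (39.5-fold). Of the joining and constant gene calls, those of Ighj3, Ighg2b and Ighg3 passed without each wild type library in turn. The adjusted p without replicate 1, 2 or 3 was 0.142, 0.196 or 0.0792 for Igha, 0.214, 0.121 or 0.0273 for Ighg2c and 0.234, 0.105 or 0.0662 for Ighm. For Ighj2 it was 0.145 and 0.262 without replicates 2 and 3, for Ighj4 it was 0.0614 without replicate 1, and for Ighg1 it was 0.139 and 0.119 without replicates 1 and 3. Ighv made up 18.2% of summed immunoglobulin FPKM in the knockout library against 19.8%, 21.5% and 22.5% in the wild type libraries.

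Several markers of antibody-making cells were higher beside the segments. In the plasma cell list, 5 of 9 tested genes were called higher and 0 lower, with a median log2 difference of 1.36 against -0.01 over all genes tested. Jchain, which links IgA and IgM chains, stood at 310 FPKM against 10.7, 6.60 and 5.29 FPKM (limma adjusted p = 0.0195), and Mzb1, an endoplasmic reticulum protein of antibody secretion, at 17.6 FPKM against 1.2, 1.24 and 1.35 FPKM (limma adjusted p = 0.0034). Derl3, Tent5c and Pou2af1 were also called. Xbp1 (59.04 FPKM against 49.33, 50.25 and 44.94), Prdm1 (2.51 against 1.82, 1.63 and 1.32) and Irf4 (5.27 against 1.78, 1.45 and 1.15) were not called. Each of these lay above every wild type library. The call of Mzb1 passed without each wild type library in turn. That of Jchain was lost without replicate 2 (adjusted p = 0.0987) or 3 (adjusted p = 0.119), and that of Pou2af1 without replicate 1 (adjusted p = 0.0866) or 3 (adjusted p = 0.0738). Those of Derl3 and Tent5c were lost without any 1 of the 3, with adjusted p from 0.0852 to 0.122 and from 0.195 to 0.232. Sdc1, a plasma cell surface marker that epithelium also makes, was 18.52 FPKM and below all 3 wild type libraries (32.06, 23.99 and 19.24 FPKM, limma adjusted p = 0.680). In the B cell list, 1 of 5 tested genes was called higher (median log2 difference 0.84), Cd79a of the B cell receptor, at 6.69 FPKM against 1.34, 1.13 and 0.83 FPKM (limma adjusted p = 0.0422, and 0.134 to 0.196 without each wild type library). Ms4a1, the gene of the B cell surface protein CD20, was at 0.50 FPKM or less in all 4 libraries and was not tested. The summed level of the list was 18.97 FPKM against 8.05, 7.10 and 5.94 FPKM, and the part of these cells in the Ighv difference was not tested.

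Most genes of the machinery that acts on the variable segments were not called. Of 6 factors of the variable segment promoter (median log2 difference 0.11), 1 was called higher. It was Pou2af1, a coactivator that binds octamer factors (9.56 FPKM against 0.65, 0.80 and 0.58, log2 difference 2.66, limma adjusted p = 0.0090). Its partners Pou2f1 (3.22 FPKM) and Pou2f2 (2.05 FPKM against 2.01, 1.85 and 1.81, limma adjusted p = 0.830) were not called. Of 12 tested genes of class switching and hypermutation 0 were called in either direction by limma, with 1 higher at an unadjusted p under 0.05 and a median log2 difference of -0.03. Rag1, a subunit of the recombinase that joins the segments in B cell precursors, was at 0.01 FPKM or less in all 4 libraries. In the B cell precursor list, 1 gene of 6 was tested, Ebf1, and it was not called (1.15 FPKM against 1.51, 1.94 and 1.56). Of 7 T cell genes 0 were called by limma, 2 were higher at an unadjusted p under 0.05, and the median log2 difference was 0.44. Of 4 tested genes of lymphoid stroma 0 were called, 1 was higher at an unadjusted p under 0.05, and the median was 0.42. The 12 kidney genes were present in every library, in accord with the tissue label, and 0 were called at either the adjusted or the unadjusted level, with a median of 0.19.

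The authors' deposited table marks 20 of the 106 segments as significantly higher, beside 0.285% of all genes in the table. It gives 83 segments a q-value of 1, and 73 of those were above every wild type library in the knockout, 22 with a ratio of 10 or more. Both that table and the limma test called 6 segments, limma alone called 30, and the authors' deposited table alone marked 14, Ighv1-26 among them.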

How the data were processed

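The members and gene lists were chosen with earlier results of these data known. Gene expression was measured in 6 samples by the labels. The table used here has columns for 4 of them. The other two knockout samples (replicates 2 and 3) were not analysed here. Groups came from the sample titles. Expression values are FPKM computed by the authors and deposited with 2 decimals, per the file headers. The deposited fold change is a ratio of the knockout FPKM to the wild type mean, and the deposited log2 fold change is its log2, where a wild type mean of 0 was given a small value instead. The deposited p-value and q-value come from a test of the authors that no source used here names. The submitters' processing notes name cutadapt 1.9, FastQC, HISAT2 2.0.4 and mm10 without roles. The sources used here give neither the program that made the FPKM values nor its handling of reads that match several segments.

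Values were analysed as log2(FPKM + 1) with limma 3.58.1 in R 4.3.3, fitting a moderated model with a trend of variance on mean (two-sided) to every gene averaging 0.5 FPKM or more, with Benjamini-Hochberg adjustment and a threshold of 0.05 (2 residual and 2.32 prior degrees of freedom). The fit was tested on simulated data. Library values were compared by an exact permutation test. Shares, families and overlaps were computed in Python 3.11.15 with pandas 2.3.3. Positions and germline sequences came from GENCODE M21, and sequence identity from edlib 1.3.9.post1 (1 minus edit distance over the longer length). Depth is unknown, so no counting intervals are given, and an FPKM of 0 is described as listed at 0.

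Segments named with values were the 15 highest in the knockout library, the 5 highest by wild type mean, the highest of each family, the 5 largest differences and 5 smallest adjusted p among those called, the 3 highest pseudogenes, and the 5 highest by wild type mean among those not above every wild type library. Alternatives changed the library scaling, pseudocount, filter, length scaling, segment type and wild type libraries used.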

Additional observations from a re-analysis of the deposited data

How the results depend on the processing

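The number of segments called higher, 36, was 10 with a pseudocount of 0.1 FPKM, 23 with a filter on the wild type mean alone (an alternative chosen after seeing the data, which tests 54 segments), and 15 to 28 leaving out each wild type library in turn. It was 46 after scaling every library to one FPKM total, 31 with quantile normalization, 26 with a pseudocount of 0.5 FPKM, 35 with no filter (only 21 of the 36 calls were kept, and calls of higher genes over the whole table rose from 108 to 949) and 36 with a mean of at least 1 FPKM. No segment was called lower in any of these. That scaling moved the median log2 difference of all genes from -0.01 to -0.11. The ratio of summed Ighv FPKM, 35.8, was 36.1 when weighted by length, 35.7 without pseudogenes, 32.4 after that scaling and 32.2 to 38.7 leaving out each wild type library. The family 1 share difference, 8.66 percentage points, ran from 7.33 to 11.1 over the same omissions.

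The effective number of segments, 1.71 above the wild type mean, was 8.90 above it when segments under 0.5 FPKM in a library were dropped (the cause was not tested), and ran from -1.26 to 3.48 leaving out each wild type library. The 0.5 FPKM cut lay above the median segment of wild type replicates 1, 2 and 3 (0.425, 0.335 and 0.245 FPKM). It lay under that of the knockout library (8.585 FPKM), so it does not treat the libraries alike. The share of the 10 highest segments, -0.725 percentage points from the wild type mean, was 0.337 with FPKM times length (the cause was not tested), -4.12 with segments under 0.5 FPKM dropped and -2.05 to 1.54 leaving out each wild type library. The log2 difference of Ighv7-1 was 0.51 with a pseudocount of 0.1 FPKM and ran from -0.73 (without wild type replicate 3) to 0.54 (without replicate 2) leaving out each library, and that of Ighv3-1 ran from -0.25 (without replicate 3) to 0.020 (without replicate 2). Over the named segments, 220 recomputed values kept their direction and their side of the threshold, 46 lost the call, 7 gained it and 3 changed direction.

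No paired analysis was possible because the only knockout column carries replicate number 1, so the groups share 1 number among the columns. Depth is unknown, so the precision of segments near 0 FPKM cannot be given.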
